A study of Homo sapiens with 9 samples.

Results

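Aminoacyl-tRNA synthetases are the enzymes that join each amino acid to its tRNA before translation. Human cells keep one set for the cytosol and another, also encoded in the nucleus, for the mitochondria, and a few genes supply both compartments. Several cytosolic enzymes are held together in the multi-tRNA synthetase complex by the scaffold proteins AIMP1, AIMP2 and EEF1E1. Many genes of the cytosolic set are known targets of ATF4, the transcription factor of the amino acid response.

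The genes described here were 38 in number, taken by symbol and kept when at least 10 reads were counted in at least 3 of the 9 libraries. All 38 of the 38 listed genes passed, among 16030 genes tested of 63187 in the table. They comprised 19 cytosolic synthetase genes, of which 7 encode members of the complex (EPRS1, IARS1, KARS1, LARS1, MARS1, QARS1 and RARS1), 16 mitochondrial synthetase genes and 3 scaffold genes. KARS1 and GARS1 each encode both the cytosolic and the mitochondrial enzyme of their amino acid and were counted with the cytosolic set.

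RNA was sequenced from BEAS-2B, an immortalized human bronchial epithelial cell line cultured in DMEM with fetal serum. Control cells received medium only. PG/VG cells were exposed for 24 h to condensed aerosol of propylene glycol with vegetable glycerin, the carrier of e-cigarette liquids, at 2% (v/v). EC cells were exposed for the same time and at the same dilution to condensed aerosol of a Virginia tobacco flavored liquid that also held 18 mg/ml nicotine. Each condition had 3 libraries, one in each of the batches numbered 2, 3 and 4 in the labels. EC differed from PG/VG in both nicotine and flavor, so these cannot be told apart, and all libraries came from 1 cell line. The ratio of propylene glycol to glycerin in the EC liquid is not stated in the study's methods, so it may differ too.

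Between 16168260 and 24917838 reads were assigned to genes per library, with the control libraries the shallowest (16168260 to 17882770). Of these reads, 0.489% to 0.824% fell on the 38 genes. Keratin genes KRT7, KRT8 and KRT18 stood at 859.9, 1058 and 546 CPM (read counts relative to library size, TMM-scaled) in control, whereas KRT5 and TP63, which mark basal airway cells, and CDH1 and EPCAM, the epithelial adhesion genes, stood at 0.0188 to 1.20 CPM. The mesenchymal markers FN1 and VIM stood at 4791 and 1068 CPM. PTPRC and CD3E, leukocyte genes, had 0 reads in every control library, which allows 3 reads a library, or up to 0.19 CPM in counting error alone. Of the 6 leukocyte and endothelial markers listed, 1 passed the count filter, and the 6 summed to 5.15 to 7.77 CPM in control. The adhesion and basal markers named here, of the labelled cell type, were thus at or near 0, beside abundant KRT7, KRT8, KRT18, FN1 and VIM transcripts. Of all markers listed, 6 of 8 epithelial and 5 of 6 mesenchymal ones passed the count filter, and not all are named here.

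Most cytosolic synthetase transcripts were downregulated by EC, and 1 mitochondrial one was. At an adjusted p under 0.05 in edgeR's quasi-likelihood test, 15 of the 38 genes were downregulated in EC vs. control and 0 were upregulated. Over all 16030 genes tested, 13.5% were called in either direction and 5.38% were called lower. The 15 were 12 of 19 cytosolic genes, 2 of 3 scaffold genes and 1 of 16 mitochondrial genes. DESeq2 with batch in the model called 16 of the 38 lower (6% of the 14165 genes it gave an adjusted p). ComBat-Seq followed by DESeq2 called 20 lower (9.79% of 16100 such genes). Without the batch term in the edgeR fit, 0 of the 38 were called in EC and 0 in PG/VG against control. The median log2 fold change was -0.31 over the cytosolic genes, -0.24 over the scaffold genes, -0.076 over the mitochondrial genes and 0.008 over all genes tested. All 19 cytosolic genes had a fold change below 0. Of them, 18 were lower than the control of the same batch in 3 of 3 batches, as were 21.5% of all genes. The 18 include QARS1 and HARS1, nearly level with control in batch 2 (log2 differences -4.2e-05 and -0.0029). Within batches 2, 3 and 4 the cytosolic medians were -0.31, -0.31 and -0.27, and the mitochondrial medians were -0.01, -0.11 and -0.12. Marker genes moved too, with 3 of 6 tested epithelial and 2 of 5 tested mesenchymal markers called lower in EC and 1 mesenchymal marker called higher. The summed epithelial markers ranged from 1776 to 2844 CPM in control and 1459.7 to 2287 in EC, the mesenchymal from 5047 to 7031 and 3561 to 5471, and the leukocyte and endothelial from 5.15 to 7.77 and 4.44 to 5.85, and their part in the synthetase values was not tested. In cultures, fewer cells with a transcript and less of it per cell cannot be told apart.

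**Figure D1:**
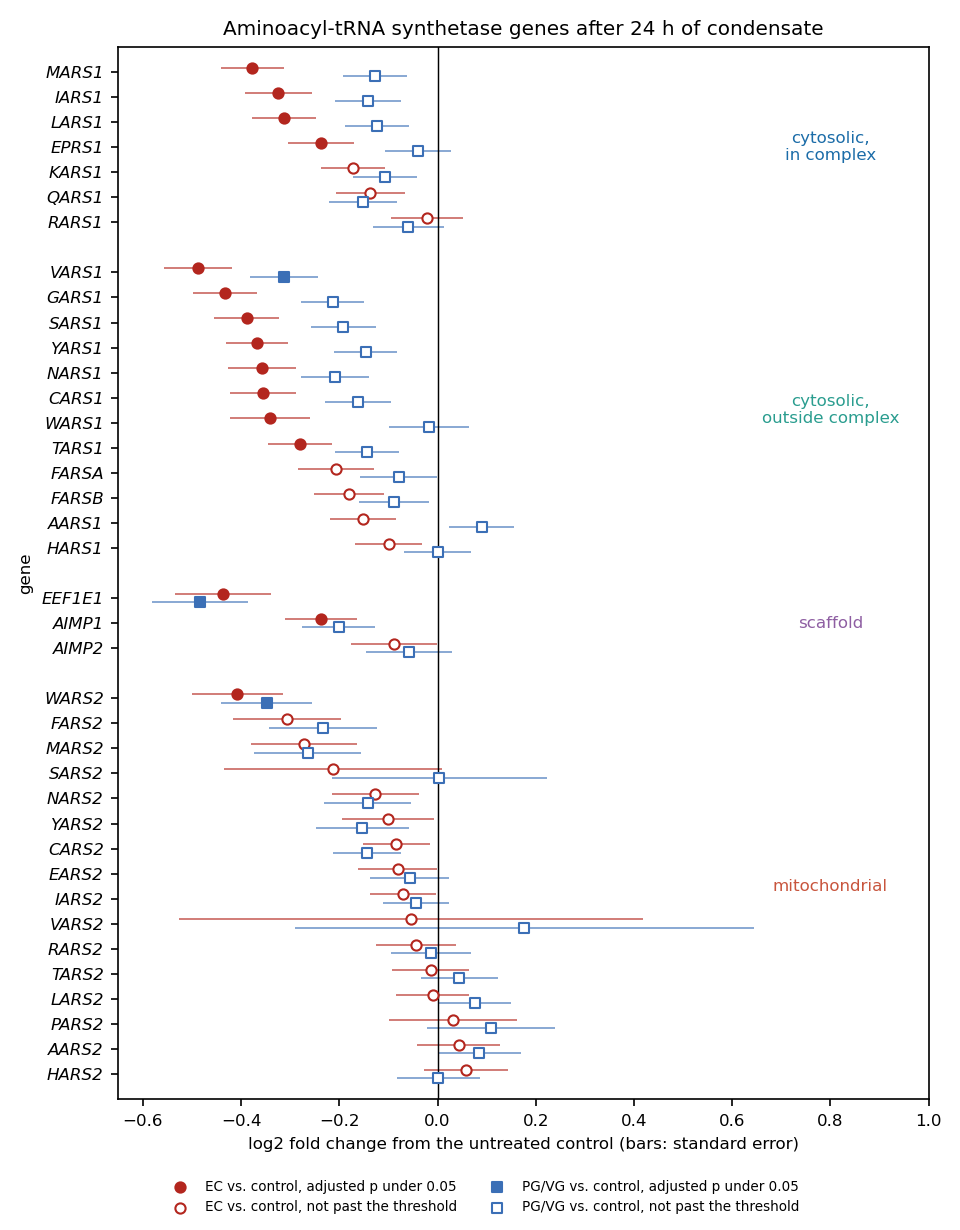
Log2 fold change from untreated control (x axis) of each of the 38 genes (y axis), in EC (circles) and PG/VG (squares), with standard errors from the edgeR fit over 3 libraries a condition; filled symbols have an adjusted p under 0.05. The 12 called cytosolic genes lay between -0.49 and -0.24 in EC, while 15 of 16 mitochondrial genes were not called.

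Letters of the promoters are shown because the cytosolic genes that fell together include several with an 8-letter sequence of the kind that ATF4 and C/EBP proteins are known to bind. RefSeq windows (GRCh38.p14) from 250 bases before to 50 after the annotated start were searched on both strands for TGATGNAA, where N is any base. A window was found for 33 of the 38 genes; LARS1, VARS1, YARS1, AARS2 and VARS2 had none in the table. Counted by gene, the letters were present in 7 of 16 cytosolic (43.8%), 1 of 14 mitochondrial (7.14%) and 0 of 3 scaffold genes with a window. The share over all 27305 genes with a window was 4.46%, and over all 35116 windows it was 3.62%. A match is a run of letters and not a measured binding site. In the following 30-base stretches, each written 5′ to 3′ on the strand of its gene, capitals mark the match.
IARS1: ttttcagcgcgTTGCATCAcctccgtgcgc
MARS1: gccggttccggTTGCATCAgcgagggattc
TARS1: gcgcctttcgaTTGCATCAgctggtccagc
GARS1: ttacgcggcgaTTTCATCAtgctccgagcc
CARS1: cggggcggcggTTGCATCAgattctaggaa
AARS1: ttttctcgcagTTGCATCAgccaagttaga
NARS1: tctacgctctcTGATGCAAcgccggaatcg
YARS2: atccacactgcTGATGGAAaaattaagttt
ASNS: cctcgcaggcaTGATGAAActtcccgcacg
The last line, from the asparagine synthetase gene, is given as a reference, since its promoter is a classical ATF4 target. In IARS1, MARS1, TARS1, CARS1 and AARS1 the 8 letters were TTGCATCA, and NARS1 carried the reverse complement of that run, TGATGCAA. GARS1 carried TTTCATCA and the mitochondrial YARS2 TGATGGAA.

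These stretches lie at chr9:92293692-92293721, minus strand (IARS1), chr12:57488053-57488082, plus strand (MARS1), chr5:33440956-33440985, plus strand (TARS1), chr7:30594834-30594863, plus strand (GARS1), chr11:3057407-3057436, minus strand (CARS1), chr16:70289675-70289704, minus strand (AARS1), chr18:57621804-57621833, minus strand (NARS1), chr12:32756076-32756105, minus strand (YARS2) and chr7:97872458-97872487, minus strand (ASNS). The match began 13 bases before the annotated start in IARS1, 4 before it in MARS1, 2 before it in CARS1 and 33 before it in GARS1. It began 2 bases after the start in TARS1 and 14 after it in NARS1. In AARS1 it began 187 bases before the start, and in YARS2 197 before. These starts are those of RefSeq, and the gene bounds of GENCODE 44 can differ from them. The AARS1 stretch lies inside the GENCODE gene (chr16:70251983-70289707, minus strand). The IARS1, MARS1, TARS1, GARS1, CARS1 and NARS1 stretches lie inside theirs too. Among amino acid response genes regulated by ATF4, 8 of 24 genes with a window (33.3%) held these letters.

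Of the cytosolic genes outside the complex, 8 of 12 were downregulated by EC. VARS1, the valyl-tRNA synthetase (ENSG00000204394, chr6:31777518-31795752, minus strand), changed most among the 38. Its level was 179.9, 202 and 173 CPM in control batches 2, 3 and 4, 148, 160.0 and 139 after PG/VG and 142, 134 and 120.0 after EC. All 6 treated libraries were below all 3 control libraries, and EC was the lowest of each batch. The change in EC vs. control was -0.49 ± 0.069 (log2, SE, n = 3 per condition; edgeR adjusted p = 6.31e-05), so the level fell by 28.7%. Every ± after a log2 value is such a standard error.

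GARS1, the glycyl-tRNA synthetase of both compartments (ENSG00000106105, chr7:30580533-30634033, plus strand), read 743, 689 and 302 CPM in control, 614, 584 and 276 in PG/VG and 533, 506 and 233 in EC. Batch 4 was the lowest of the batches in each condition, so the conditions overlapped across batches but kept the order control, PG/VG, EC within each. Its log2 change in EC was -0.43 ± 0.065 (edgeR adjusted p = 0.000113). SARS1, which charges serine tRNA (ENSG00000031698, chr1:109213918-109238182, plus strand), read 498, 507 and 289.8 CPM in control, 435, 439.8 and 257 in PG/VG and 388, 358 and 234 in EC, with the same order within every batch. Its change in EC was -0.39 ± 0.066 (edgeR adjusted p = 0.000398).

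YARS1, the tyrosyl enzyme (ENSG00000134684, chr1:32775237-32818031, minus strand), stood at 481, 489 and 261 CPM in control, 437, 431 and 239.9 in PG/VG and 382, 369.8 and 202 in EC. NARS1, the asparaginyl enzyme (ENSG00000134440, chr18:57600656-57622213, minus strand), stood at 588, 544 and 307 CPM in control, 472, 454 and 297 in PG/VG and 434, 409.8 and 263 in EC. In both genes EC was the lowest library of each batch. The log2 changes in EC were -0.37 ± 0.064 for YARS1 and -0.36 ± 0.069 for NARS1 (edgeR adjusted p = 0.000483 and 0.00123). CARS1, the cysteinyl enzyme (ENSG00000110619, chr11:3000922-3057613, minus strand), had 213, 219.5 and 106 CPM in control, 194, 186 and 98.9 in PG/VG and 172, 171 and 80.6 in EC. It changed by -0.35 ± 0.067 (edgeR adjusted p = 0.00111) and was again ordered control, PG/VG, EC in every batch.

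TARS1, the threonyl enzyme (ENSG00000113407, chr5:33440696-33468091, plus strand), had 660.2, 651 and 419.6 CPM in control, 584, 573 and 399 in PG/VG and 560.3, 525 and 342 in EC. Its change in EC was -0.28 ± 0.065 (edgeR adjusted p = 0.00583), and the call was lost without control library 3 (adjusted p = 0.057). WARS1, the tryptophanyl enzyme, which is known to be induced by interferon-gamma (ENSG00000140105, chr14:100333790-100376805, minus strand), behaved differently in batch 4. It read 495, 486 and 184 CPM in control, 444, 431 and 226 in PG/VG and 360.2, 347 and 177 in EC, so that EC lay well below control in batches 2 and 3 and close to it in batch 4. The differences within batches were -0.46, -0.49 and -0.05 on the log2 scale, and the fitted change was -0.34 ± 0.082 (edgeR adjusted p = 0.00775). That call was lost in 3 of 9 fits that each left out 1 library, with the largest adjusted p, 0.082, without control library 3.

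The other 4 cytosolic genes outside the complex were not called. FARSA and FARSB, the subunits of the phenylalanyl enzyme, had log2 changes of -0.21 ± 0.078 and -0.18 ± 0.072 (edgeR adjusted p = 0.0832 and 0.1). FARSA nonetheless read 97, 95.2 and 95.6 CPM in EC and 105, 111.3 and 116 in control, with no overlap. AARS1, the alanyl enzyme, and HARS1, the histidyl enzyme, had changes of -0.15 ± 0.066 and -0.10 ± 0.068 (adjusted p = 0.138 and 0.374).

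Of the 7 listed synthetases of the complex, 4 were downregulated by EC. MARS1, the methionyl enzyme that serves both initiator and elongator tRNA (ENSG00000166986, chr12:57475445-57517569, plus strand), stood at 613, 619.6 and 281 CPM in control, 542, 569.9 and 265 in PG/VG and 471, 461 and 225 in EC. EC was the lowest and control the highest library in every batch, and the log2 change was -0.38 ± 0.065 (edgeR adjusted p = 0.000417). For MARS1, 13.3% of the exon length overlaps exons of other genes, nearly all on the opposite strand.

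IARS1, the isoleucyl enzyme (ENSG00000196305, chr9:92210207-92293854, minus strand), had 868, 819 and 483 CPM in control, 752, 719 and 473 in PG/VG and 641, 641 and 427 in EC. LARS1, the leucyl enzyme, which also acts as a leucine sensor upstream of mTORC1 (ENSG00000133706, chr5:146110566-146182696, minus strand), had 456, 438 and 246 CPM in control, 406, 388 and 241 in PG/VG and 359, 352 and 203 in EC. Both were lowest in EC in every batch. The changes were -0.32 ± 0.068 and -0.31 ± 0.065 (edgeR adjusted p = 0.00258 and 0.0025). EPRS1 encodes the fused glutamyl and prolyl enzyme (ENSG00000136628, chr1:219968600-220046530, minus strand) and read 435, 422 and 248 CPM in control, 413, 385 and 263 in PG/VG and 362, 363 and 212 in EC. In batch 4 its PG/VG library lay above the control, while EC was the lowest of each batch. Its change in EC was -0.24 ± 0.067 (edgeR adjusted p = 0.0215), which was lost in 3 of 9 fits with 1 library left out, with the largest adjusted p, 0.13, without control library 3.

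KARS1, QARS1 and RARS1, the lysyl, glutaminyl and arginyl enzymes of the complex, were not called. Their log2 changes were -0.17 ± 0.065, -0.14 ± 0.07 and -0.02 ± 0.073 (edgeR adjusted p = 0.0804, 0.212 and 0.886). RARS1 was the cytosolic gene closest to no change, with 143, 131 and 164 CPM in control and 144, 129 and 159 in EC. KARS1 was below control by a similar amount in every batch, with within-batch differences of -0.18, -0.14 and -0.19.

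The scaffold genes differed among themselves. EEF1E1 (ENSG00000124802, chr6:8073360-8102559, minus strand), also named AIMP3, read 27.6, 27.7 and 22 CPM in control, 19.4, 18.9 and 16.9 in PG/VG and 22.9, 19 and 15.4 in EC. Both condensates lay below control in every batch, by -0.44 ± 0.097 in EC (edgeR adjusted p = 0.0043). Of its exon length, 18.8% overlaps another gene on the same strand, and reads there were not counted. AIMP1 (ENSG00000164022, chr4:106315544-106349456, plus strand), whose cleaved form is the cytokine EMAPII, read 73.6, 64 and 68.8 CPM in control, 61.5, 52.8 and 65.6 in PG/VG and 60.1, 54.1 and 60.9 in EC. The EC libraries did not overlap with control, and the change was -0.24 ± 0.074 (edgeR adjusted p = 0.0354), a call kept in 4 of 9 fits with 1 library left out and with the largest adjusted p, 0.17, without control library 3. AIMP2 had a change of -0.09 ± 0.088 (edgeR adjusted p = 0.563).

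Among the mitochondrial synthetases, WARS2 alone was called in EC vs. control. WARS2, the mitochondrial tryptophanyl enzyme (ENSG00000116874, chr1:119031216-119140654, minus strand), read 24.6, 25 and 18.3 CPM in control, 19.8, 19.1 and 14.3 in PG/VG and 18.6, 18.6 and 13.9 in EC. It lay below the same-batch control by similar amounts in every batch, -0.40, -0.43 and -0.39 on the log2 scale. The fitted change was -0.41 ± 0.093 (edgeR adjusted p = 0.00518), and the call held in 9 of 9 fits with 1 library left out. FARS2, the mitochondrial phenylalanyl enzyme, came next at -0.31 ± 0.11 (edgeR adjusted p = 0.0686).

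The mitochondrial partners of the called cytosolic enzymes were then read side by side. IARS2 stood at 189, 182 and 189 CPM in control, 176, 173 and 194 in PG/VG and 188, 165 and 180.4 in EC. LARS2 stood at 59.7, 62.4 and 84.5 CPM in control, 65.3, 65.2 and 86.4 in PG/VG and 55.6, 66.2 and 83.5 in EC. CARS2 stood at 115, 115 and 201 CPM in control, 109.7, 105 and 172 in PG/VG and 115, 113 and 173 in EC. In these 3 genes the conditions overlapped, and both LARS2 and CARS2 were highest in batch 4. Their log2 changes in EC were -0.07 ± 0.068, -0.01 ± 0.074 and -0.08 ± 0.069.

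TARS2 had 44.4, 47.5 and 44.8 CPM in control, 48.4, 48.6 and 44.1 in PG/VG and 49, 44.3 and 42.4 in EC. NARS2 had 29.8, 30 and 26.1 CPM in control, 26.1, 26.9 and 24.7 in PG/VG and 29.2, 26.8 and 22.7 in EC. YARS2 had 25.9, 25.3 and 33.3 CPM in control, 23.6, 24.2 and 28 in PG/VG and 26.9, 25.3 and 25.9 in EC. The 3 genes overlapped between conditions, and the difference of YARS2 rested on batch 4, where control was 33.3 and EC 25.9 CPM. MARS2 was the exception to overlap, with 15.5, 14.7 and 15 CPM in control, 12.7, 12.7 and 12.1 in PG/VG and 11.3, 13.4 and 12.8 in EC. All 3 control libraries of MARS2 exceeded all 6 others, although its change in EC, -0.27 ± 0.11, was not called (edgeR adjusted p = 0.102).

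EPRS1 supplies both activities in the cytosol, and its mitochondrial counterparts are EARS2 and PARS2. EARS2 had 38.6, 40.4 and 44.5 CPM in control, 38.5, 40.8 and 39.4 in PG/VG and 39.4, 37.4 and 39.8 in EC. PARS2 had 7.62, 8.98 and 7.71 CPM in control, 8.77, 7.99 and 9.35 in PG/VG and 7.89, 8.47 and 8.48 in EC. Neither was called, with changes in EC of -0.08 ± 0.08 and 0.03 ± 0.13. SARS2 had 2.99, 2.60 and 3.21 CPM in control, 2.79, 3.56 and 2.53 in PG/VG and 2.34, 2.09 and 3.22 in EC, and the conditions overlapped. VARS2 had 0.572, 0.31 and 0.844 CPM in control, 0.492, 0.875 and 0.60 in PG/VG and 0.674, 0.213 and 0.794 in EC. These levels rest on 42 to 68 reads per library for SARS2 and 5 to 17 for VARS2, and 48.2% and 63.0% of their exon length overlaps other genes on the same strand, so a difference of the size seen in VARS1 was not detectable in VARS2. The remaining genes AARS2, HARS2 and RARS2 had changes of 0.04, 0.06 and -0.04.

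For 16 amino acids both a cytosolic and a mitochondrial gene were on the list, with FARSA and FARSB averaged for phenylalanine and EPRS1 set against both EARS2 and PARS2. The cytosolic fold change was the lower for 13 of them in EC vs. control, with a median difference of -0.21 on the log2 scale. The exceptions were arginine (-0.02 for RARS1 against -0.04 for RARS2), tryptophan (-0.34 against -0.41) and phenylalanine (-0.21 for FARSA and -0.18 for FARSB against -0.31 for FARS2). The widest gap was for valine, whose mitochondrial gene is the one with few reads, and the next was for leucine, -0.31 against -0.01. Read depth differed between the sets: the standard error of the EC change had a median of 0.067 in the cytosolic and 0.086 in the mitochondrial genes. No test of the difference between the sets was made.

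**Figure D2:**
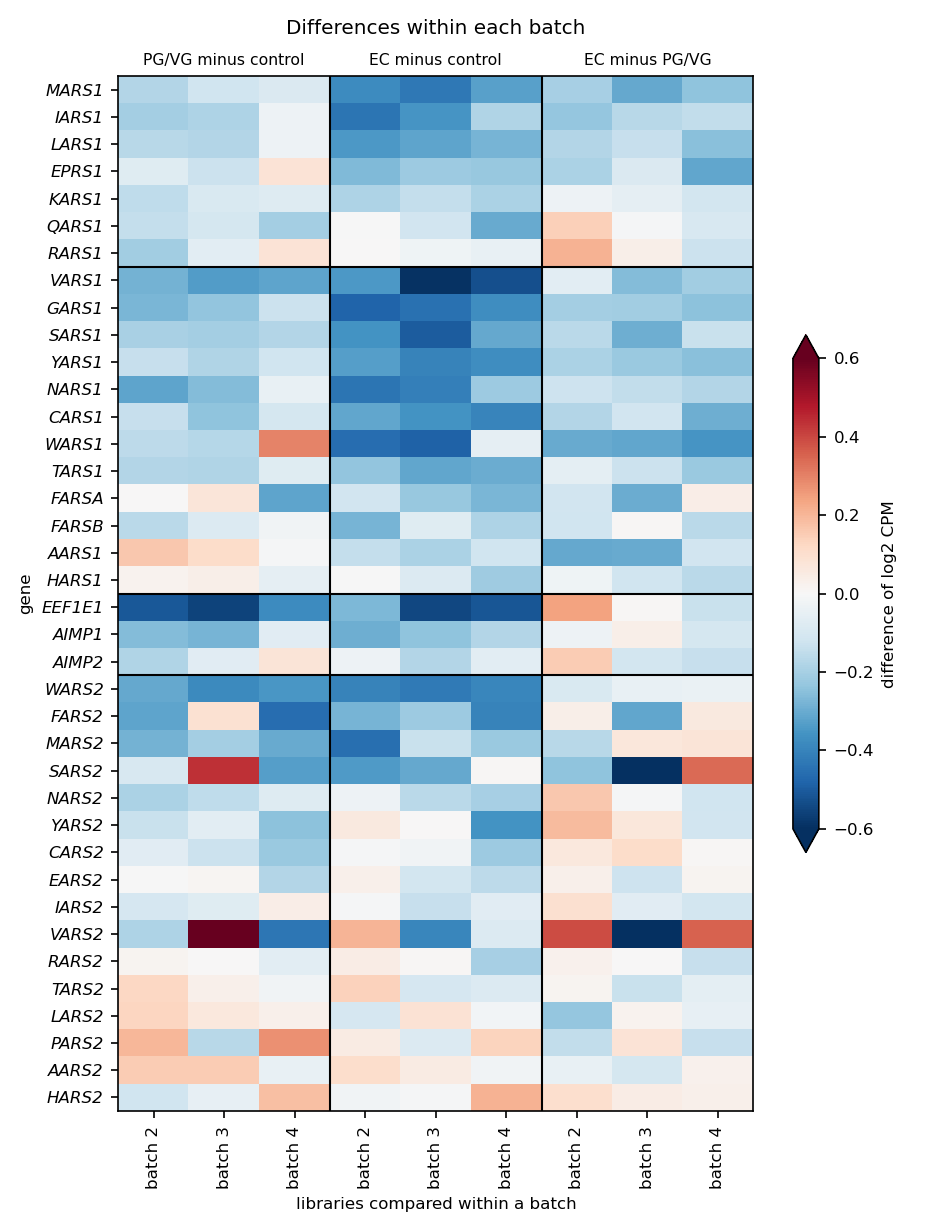
Difference of log2 CPM between 2 libraries of the same batch (color) for each of the 38 genes (rows), with 3 columns a comparison; horizontal lines part complex members, other cytosolic genes, scaffold genes and mitochondrial genes. In EC minus control 18 of 19 cytosolic genes were below 0 in all 3 batches, against 6 of 16 mitochondrial genes. Among these, QARS1, HARS1, CARS2 and IARS2 were nearly level with control in batch 2. The extreme cells of VARS2 and SARS2 rest on few reads.

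In PG/VG vs. control, 3 of the 38 genes were downregulated and 0 were upregulated, where 4.54% of all genes were called in either direction and 1.9% were called lower. They were EEF1E1, VARS1 and WARS2, 1 in each set. DESeq2 with batch called 5 of the 38 lower (3.02% of the 12300 genes it gave an adjusted p). ComBat-Seq followed by DESeq2 called 13 lower (7.68% of 12354 such genes). EEF1E1 changed by -0.48 ± 0.098 (edgeR adjusted p = 0.00568), VARS1 by -0.31 ± 0.069 (adjusted p = 0.0108) and WARS2 by -0.35 ± 0.093 (adjusted p = 0.0332). For EEF1E1 and WARS2 the PG/VG change was close to that in EC (-0.44 and -0.41), and both comparisons use the same control libraries. The calls of EEF1E1, VARS1 and WARS2 held in 8, 7 and 3 of 9 fits with 1 library left out, and 0 of the 3 held without PG/VG library 2.

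GARS1, NARS1 and SARS1 were next, with PG/VG changes of -0.21 ± 0.065, -0.21 ± 0.069 and -0.19 ± 0.066 (edgeR adjusted p = 0.0597, 0.0818 and 0.0984). The median log2 change in PG/VG was -0.13 over the cytosolic genes, -0.20 over the scaffold genes, -0.029 over the mitochondrial genes and 0.013 over all genes tested. Of the cytosolic genes, 17 of 19 had a change below 0, and 13 were lower in 3 of 3 batches, as were 19.9% of all genes. AARS1 was the cytosolic gene with the highest PG/VG value, 0.09 ± 0.066, reading 533, 555 and 351 CPM in PG/VG against 476, 515 and 352 in control. WARS1 showed -0.02 ± 0.082, with within-batch differences of -0.16, -0.17 and 0.30, so that batch 4 pointed the other way. Among the 16 amino acids, the cytosolic change was the lower for 10, with a median difference of -0.032. All PG/VG libraries lay below all control libraries for QARS1, VARS1, EEF1E1 and MARS2 (6.37% of all genes), and all EC libraries below all control libraries for FARSA, VARS1, AIMP1, FARS2 and MARS2 (7.42%).

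The comparison of EC with PG/VG sets the liquid with nicotine and flavor beside a liquid of carrier alone. None of the 38 genes was called in it by edgeR at an adjusted p under 0.05, where 0.855% of all genes were called and 0.299% were called lower. At an unadjusted p under 0.05 edgeR gave 13 genes, all 13 of them cytosolic and lower in EC, where 12.9% of all genes passed and 6.22% passed and were lower. WARS1 came closest, with a log2 difference of -0.32 ± 0.081 (edgeR adjusted p = 0.0619) and with EC below PG/VG by a like amount in every batch (-0.30, -0.31 and -0.35). MARS1 differed by -0.25 ± 0.064 and AARS1 by -0.24 ± 0.066 (edgeR adjusted p = 0.0674 and 0.0893). For AARS1 the EC libraries read 431, 451 and 324 CPM and the PG/VG libraries 533, 555 and 351, with control between them in batches 2 and 3.

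The cytosolic median of EC minus PG/VG was -0.18, with 17 of 19 genes below 0 and 15 lower in 3 of 3 batches, as were 14.6% of all genes. The corresponding medians were -0.030 for the scaffold genes, -0.036 for the mitochondrial genes and 0.002 for all genes tested. Of the mitochondrial genes, 1 of 16 was lower in 3 of 3 batches. For 0 of the 38 genes did all EC libraries lie below all PG/VG libraries, as they did for 3.37% of all genes. The count depended on the tool, since DESeq2 with batch in the model called 5 genes lower and ComBat-Seq followed by DESeq2 called 11, all cytosolic. Of the genes given an adjusted p by the same tools, 0.683% of 12300 and 2.98% of 12042 were called lower. EEF1E1 and WARS2, both lower with either condensate, differed between EC and PG/VG by 0.05 ± 0.098 and -0.06 ± 0.093.

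On the median, the cytosolic genes differed more between batches than between conditions. In an F-test over batches in the same edgeR fit, 21 of the 38 genes were called, where 34.3% of all genes were called. They were 15 of 19 cytosolic genes, 2 of 3 scaffold genes and 4 of 16 mitochondrial genes. Of the 15, 14 were lower in batch 4 than in batches 2 and 3 and RARS1 was higher. Over all genes, 17.1% were called and lower in batch 4. The cytosolic median of batch 4 minus the mean of batches 2 and 3 was -0.68 on the log2 scale, against 0.061 for the mitochondrial genes and -0.003 for all genes tested. Batches 2 and 3 were close to each other, with a cytosolic median difference of -0.028.

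GARS1 had the largest batch difference. Its mean over the 3 conditions was 629.8, 593 and 270.2 CPM in batches 2, 3 and 4, so that batch 4 was 0.444 times the others (log2 -1.17; edgeR adjusted p = 1.82e-12). WARS1, MARS1 and CARS1 followed at -1.12, -1.08 and -1.02, then YARS1 at -0.88 and LARS1 at -0.79. SARS1, NARS1, EPRS1, IARS1, TARS1 and AARS1 lay between -0.74 and -0.52, and FARSB and QARS1 at -0.33 and -0.20. RARS1 was the opposite case, with batch means of 137, 128 and 166 CPM (log2 0.32; edgeR adjusted p = 0.000667). The other 4 cytosolic genes were not called between batches, namely VARS1 (-0.16), HARS1 (-0.14), FARSA (-0.05) and KARS1 (0.17). For 14 of 19 cytosolic genes all 3 batch 4 libraries were below the other 6, as for 14.6% of all genes.

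The mitochondrial genes did not move together between batches. CARS2 was higher in batch 4, with batch means of 113, 111.1 and 182 CPM (log2 0.70; edgeR adjusted p = 8.88e-09), while its cytosolic counterpart CARS1 had batch means of 193, 192 and 95.3 CPM. LARS2 was also higher in batch 4 (0.44), and RARS2 and WARS2 were lower (-0.48 and -0.43). For 15 of the 16 amino acids the cytosolic gene had the lower batch 4 difference, with arginine as the exception. AIMP2 and EEF1E1 were lower in batch 4 (-0.25 and -0.32) and AIMP1 was not called between batches.

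**Figure D3:**
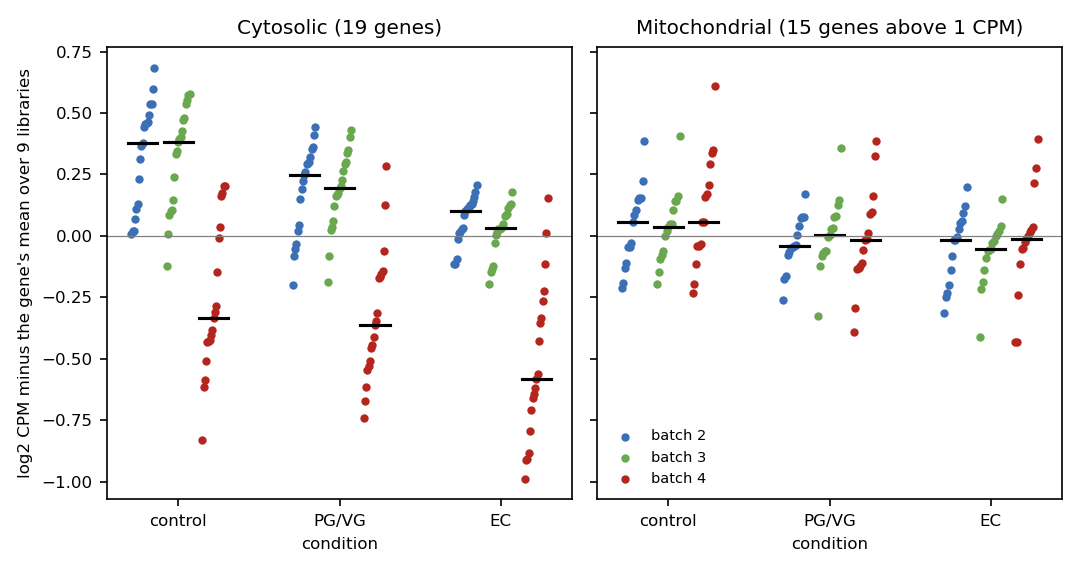
Log2 CPM minus the mean of the same gene over the 9 libraries (y axis), by condition (x axis) and batch (color), for 19 cytosolic genes (left) and the 15 mitochondrial genes above 1 CPM (right); points are genes and bars are medians. Within each batch the cytosolic median was highest in control and lowest in EC, and all 3 batch 4 libraries were below the other 6 for 14 of 19 genes; the mitochondrial medians stayed near 0.

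Across the 19 cytosolic genes, those with the larger batch 4 difference also had the larger EC change. Pearson's r between the fold change in EC vs. control and the batch 4 difference was 0.70 (Spearman's rho 0.70), as a description over genes of the same 9 libraries, which are not independent. It was 0.24 over the 16 mitochondrial genes (rho -0.03). For PG/VG vs. control r was 0.16 over the cytosolic and 0.32 over the mitochondrial genes. For EC vs. PG/VG it was 0.82 over the cytosolic and -0.17 over the mitochondrial genes. The 14 cytosolic genes called lower in batch 4 had a median EC change of -0.33 and 11 of them were called in EC, whereas the other 5 had a median of -0.17 and 1 of them, VARS1, was called. VARS1 thus had the largest EC change with a batch 4 difference of -0.16.

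The 7 cytosolic genes with TGATGNAA in the window had a median EC change of -0.35 and a median batch 4 difference of -0.73, and 6 of them were called in EC and 7 between batches. The exception in EC was AARS1. The 9 cytosolic genes with a window and no match had medians of -0.18 and -0.20, and 3 of them were called in EC and 6 between batches. LARS1, VARS1 and YARS1 had no window in the table, so whether they hold the letters is not known here, and their medians were -0.37 and -0.79, with 3 of 3 called in EC and 2 between batches. WARS1 had no match and a batch 4 difference of -1.12. Over all genes tested, 13.5% were called in EC vs. control and 34.3% between batches. Whether the letters bear on these changes was not tested.

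**Figure D4:**
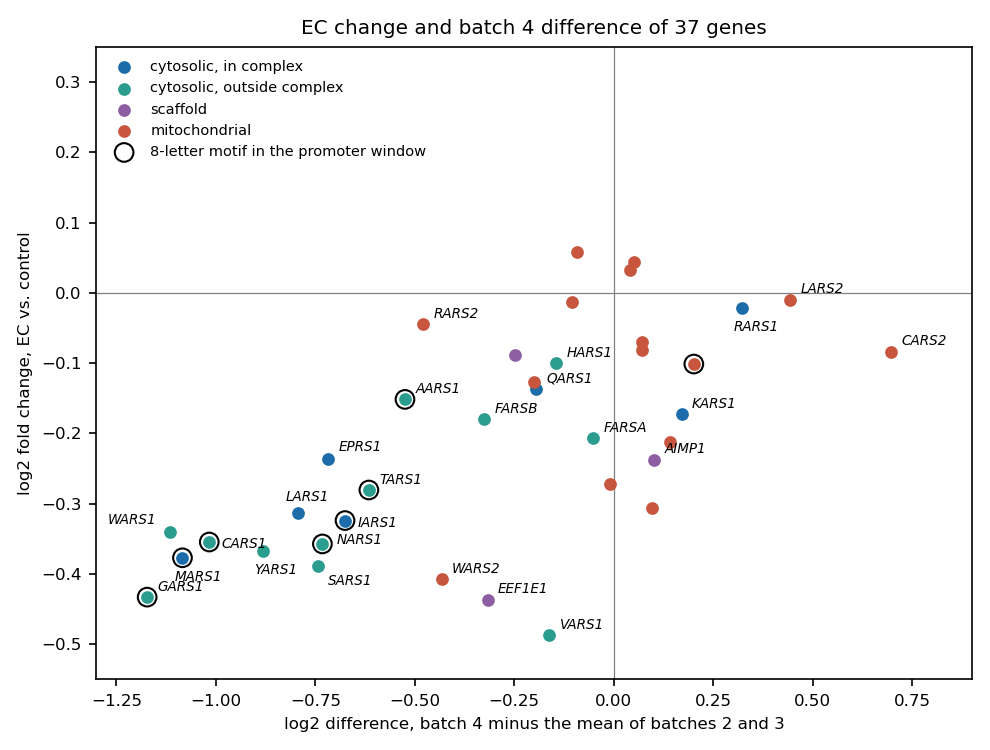
Log2 fold change in EC vs. control (y axis) against the log2 difference of batch 4 from the mean of batches 2 and 3 (x axis) for 37 genes, leaving out VARS2 for its few reads; color gives the set and open rings mark a TGATGNAA match in the promoter window. GARS1, at -1.17 and -0.43, and VARS1, at -0.16 and -0.49, are the cytosolic genes lowest on the x and the y axis; the mitochondrial genes lie between -0.13 and 0.06 in EC except WARS2, FARS2, MARS2 and SARS2.

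Levels between genes were compared per kilobase of exon (RPKM, from exon lengths of the union of transcripts). In control, TARS1, NARS1 and SARS1 were highest at 135, 117 and 112 RPKM, followed by MARS1 (71.8), EPRS1 (69.2) and WARS1 (61.1). The cytosolic median was 43.7 RPKM, and HARS1 was lowest at 9.55. IARS2 stood out among the mitochondrial genes at 45.2 RPKM, where the median was 5.65 and CARS2 came next at 13.8. The scaffold genes stood at 7.43 to 17.4 RPKM. A long rare transcript lengthens the union and lowers this value, so neighbors in the order are not ranked further.

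Other genes of tRNA charging and of the amino acid response were read from lists. TARS3, a threonyl-tRNA synthetase gene, and SEPSECS and PSTK, of selenocysteine charging, were not called in EC vs. control (-0.14 ± 0.14, 0.25 ± 0.12 and 0.42 ± 0.15; edgeR adjusted p = 0.578, 0.171 and 0.0654). Over all genes 13.5% were called and 5.38% called lower. Editing and proofreading factors had 0 of 5 called, and mitochondrial charging partners 1 of 8 called, lower: TRNT1, which adds the CCA end (-0.32 ± 0.087). Of the tRNA splicing, end processing and export genes, 2 of 23 were called, both lower, and 1 to 3 with 1 library left out (1 without control 2 or 3). They were XPOT, the tRNA exporter, with 640.0, 606 and 291 CPM in control, 536, 517 and 296 in PG/VG and 486, 493 and 265 in EC (-0.28 ± 0.07, edgeR adjusted p = 0.00968), and TSEN15, a splicing endonuclease subunit (-0.35 ± 0.07).

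Among tRNA modification enzymes, 6 of 47 were downregulated by EC and 0 upregulated, against the shares over all genes given above. With 1 library left out 2 to 8 were called, 2 without EC 3 and 3 without control 3 or control 4. The largest changes were in TRMT61A, the m1A methyltransferase subunit (-0.51 ± 0.094), CTU1, which thiolates the wobble uridine (-0.46 ± 0.13), WDR4, a partner of the m7G methyltransferase (-0.42 ± 0.091), and PUS1, a pseudouridine synthase (-0.33 ± 0.087). Of the genes of the eEF1 complex, which as a whole serves the delivery of charged tRNA to the ribosome, 4 were tested. Among them EEF1B2 (-0.34 ± 0.067) and EEF1D (-0.22 ± 0.07) were downregulated. RNA polymerase III genes had 1 of 22 called, POLR3G (-0.45 ± 0.11), and 0 without control 2 and 2 without control 4. With 1 library left out the eEF1 count ran from 1 (without any 1 control, EC 3 or EC 4) to 3, and TRNT1 lost its call without control 2 or EC 2.

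Of 30 amino acid response genes regulated by ATF4, a list that does not include the synthetases, 12 were downregulated and 2 upregulated by EC. Their median was -0.15, and 12 to 14 were called with 1 library left out. Over all genes, 13.5% were called and 5.38% called lower. PYCR1, of proline synthesis, changed by -0.63 ± 0.073, PCK2, the mitochondrial PEP carboxykinase, by -0.45 ± 0.074, and PSAT1, of serine synthesis, by -0.45 ± 0.064. SLC7A5, the leucine transporter, was upregulated by 0.43 ± 0.078, as was ATF5 by 0.34 ± 0.1. ATF4 itself read 866, 835 and 626 CPM in control, 776, 812 and 512 in PG/VG and 827, 732 and 565 in EC and was not called (-0.13 ± 0.07, edgeR adjusted p = 0.224). ASNS read 9.47, 7.80 and 3.15 CPM in control, 7.54, 10.2 and 1.97 in PG/VG and 6.19, 9.07 and 2.08 in EC, was low in batch 4 in every condition and was not called in EC (-0.29 ± 0.18, adjusted p = 0.307). Between batches, 27 of the 30 were called, 26 of them lower in batch 4, with a median of -0.97. The shares over all genes were 34.3% called and 17.1% called and lower in batch 4. The part of batch in the synthetase values beyond the fitted term was not tested.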

How the data were processed

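Messenger RNA was selected by poly-A and sequenced in paired ends from 9 libraries, 3 per condition. Per the labels and the study's methods, the authors used fastp for trimming, STAR for alignment (GRCh38.p12) and featureCounts of Subread 2.0.4 for counting on Ensembl exons, ignoring multi-mapping and multi-overlapping reads; the strand setting is not given in the sources used here. Reads shared with pseudogenes or overlapping exons were thereby left out. The deposited table holds raw counts for 63187 genes. The study's own analysis (ComBat-Seq, DESeq2) was run on these and is not used.

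The 16030 genes that reached 10 counts in 3 or more libraries were fitted with edgeR 4.0.16 (R 4.3.3), using TMM scaling, robust quasi-likelihood dispersion, and condition and batch as terms over all 9 libraries. The p-values were adjusted by Benjamini-Hochberg over all genes tested, and 0.05 was the threshold. Each standard error is the log2 fold change without its sign divided by the square root of F. CPM are TMM-scaled; within-batch differences used a prior count of 2. The batch term is in the fit because the study removed a batch effect and the labels give each library a batch number. The labels do not say what a batch shares, and the study's methods call the replicates biological. Deviations of same-numbered libraries from their condition means correlated at 0.334 to 0.707, and those of different numbers at -0.539 to 0.426. Symbols, coordinates and exon lengths came from GENCODE 44 (GRCh38), and promoters from RefSeq GRCh38.p14. Protein sequences were not used here.

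The alternatives were RLE scaling, library size alone, 2 other count filters, DESeq2 1.42.0 with batch, ComBat-Seq (sva 3.50.0) then DESeq2, no batch term, each library left out and, chosen after seeing the data, batch 4 left out. The code was tested on simulated data. Genes received values per library if they were called and among the 8 largest changes of their role group in EC vs. control or EC vs. PG/VG, as did their counterpart for the same amino acid; outside the 38, XPOT, ATF4, ASNS and up to 4 called genes per list with the same sign in 3 of 3 batches were named, and some genes are not reported here. The values per library of FARSA, RARS1 and AARS1, and the naming of ATF5, TARS3, SEPSECS and PSTK, were chosen after their values were seen. The 38 genes and the lists were chosen with earlier results of these data known, and no list was tested as a set.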

Additional observations from a re-analysis of the deposited data

How the results depend on the processing

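The 15 EC calls and 3 PG/VG calls against control kept their direction under every alternative. Without the replicate block (no batch term) 0 of the 38 genes were called in EC and 0 in PG/VG against control. That fit leaves the spread between batches in the error, and its part in each lost call was not tested. Of all genes that fit called 16 in EC and 1 in PG/VG against control, and 1 between the condensates. DESeq2 with batch gave 5 calls in PG/VG vs. control and 5 in EC vs. PG/VG, ComBat-Seq then DESeq2 gave 13 and 11, and no filter on low counts gave 2 in EC vs. PG/VG; the cause was not tested. With 1 library left out, the number called ranged from 12 to 15 in EC vs. control, from 0 (without PG/VG 2) to 6 (without EC 2) in PG/VG vs. control, with 1 without control 3, and from 0 to 1 in EC vs. PG/VG. Without batch 4, 14 of the 15 EC calls held, AIMP1 being lost (edgeR adjusted p = 0.051), and of the 3 PG/VG calls EEF1E1 held and VARS1 and WARS2 were lost (adjusted p = 0.061 and 0.091), while NARS1 was called. The cytosolic median in EC vs. control was -0.25 with library size only, -0.34 without batch 4 and -0.34 to -0.28 with 1 library left out, and the scaffold median was -0.18 with library size only and -0.29 to -0.22 with 1 left out. The mitochondrial median in EC vs. control was -0.015 with library size only, -0.032 without batch 4 and -0.13 (without EC 2) to -0.029 (without control 4) with 1 library left out. The mitochondrial median in PG/VG vs. control ranged from -0.12 to -0.0029. In EC vs. PG/VG the cytosolic median was -0.15 with library size only, -0.16 without batch 4 and -0.19 to -0.14 with 1 left out, and the mitochondrial median was -0.0024 with library size only and -0.055 to 0.0038 with 1 left out.

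Depth limits VARS2 (5 to 17 reads per library) and SARS2 (42 to 68), where changes of the size seen in the cytosolic genes could not be resolved. The EC calls of TARS1, EPRS1, WARS1 and AIMP1 were lost without control library 3 (edgeR adjusted p = 0.057, 0.129, 0.082 and 0.171). TARS1 kept its call without each of the others, whereas EPRS1 also lost it without control 2 or EC 4, WARS1 without control 2 or EC 3, and AIMP1 without control 2 or any 1 EC library. With library size only, EPRS1 and AIMP1 lost their calls (adjusted p = 0.080 and 0.117), leaving 13, and with no filter on low counts AIMP1 did (0.073), leaving 14. The EC and PG/VG comparisons share their controls, which were the shallowest libraries.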
